A study of Mus musculus with 32 samples.

Results

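Genes of mature fat cells varied widely among 32 B lineage lymphomas of Eµ-myc mice, and 7 of 8 such genes could be measured: Adipoq, Fabp4, Lpl, Cidec, Retn, Car3 and Plin4. The eighth, Cfd, is not analysed here. They were picked from a list of symbols that had been chosen for their levels in these same tumours, so their levels and their relations to each other are given as a description, with no test. Each gene stands for the probe sets named by its symbol alone, and the probe set with the highest mean leads. The 7 genes are among 18194 genes with a symbol of their own on the Affymetrix Mouse430_2 array. A probe set is the group of probes that measures one transcript.

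All 32 samples belong to 1 group, lymphoma tumour of genotype Eµ-myc, with 1 array per tumour, and no untreated, healthy or other comparison group is given. In these mice an immunoglobulin heavy chain enhancer drives Myc in the B lineage. Total RNA was taken either from frozen tissue or from dissociated cells. Which of these was used for a given tumour, where the tumour lay and whether any came from the same mouse is not recorded. P-values measure only the spread between these arrays, taken as independent. Tumours are called by their label number, and levels are log2 values.

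The arrays had medians of 5.72 to 5.80, and 0 pairs held identical values. The B cell receptor gene Cd79a lay between 9.37 and 11.64 and Cd79b between 11.11 and 12.63. Tumours 2 and 24 had the lowest values of these genes in turn, and the highest values of the T cell genes Cd3d, Cd3e and Cd3g. In 11 tumours the salivary gland gene Bpifa2 was between 12.97 and 14.26, against 3.59 to 5.19 in the other 21. The difference between 3' and 5' control probe sets, a sign of RNA quality, ran from 0.26 to 0.96.

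White fat cells store triglyceride in a single large droplet and release hormones into the blood, while brown fat cells hold many small droplets and burn fat for heat through Ucp1. Fatty acids reach the droplet from lipoproteins, which Lpl cleaves at the capillary wall, or from new synthesis inside the cell, and Dgat enzymes close the triglyceride. Lymph nodes of the mouse lie embedded in fat, and the nodes of the neck lie beside salivary gland and muscle. Fabp4 and Lpl are also made by cells other than fat cells, among them macrophages and, for Fabp4, capillary endothelium. In bulk RNA, fewer fat cells and less RNA per fat cell cannot be told apart.

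Adipoq encodes adiponectin, the most fat-restricted hormone of the set, and lies on the plus strand of chromosome 16 (GRCm38.p6, chr16:23146536-23157968). Its level was 4.09 in the lowest tumour (tumour 22), 7.15 at the median and 11.21 in the highest (tumour 19), a span from the median to the top of 16.7-fold. The next highest tumours were 21 (10.89), 13 (10.14), 31 (9.97), 5 (9.55) and 24 (9.27). No gap of at least 25% of the range divided the tumours, so that Adipoq ran as a continuum. With 1 array per tumour, the order of neighbours such as tumours 13 and 31 has no replicate error behind it.

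Car3, a carbonic anhydrase abundant in fat and slow muscle, had the widest spread of the 7, with an SD of 2.41 against 2.06 for Adipoq. Car3 (chr3:14863538-14872381) was 4.25 in tumour 22, 9.59 at the median and 13.41 in tumour 19. Both genes were lowest in the same tumour and highest in the same tumour. Over the 32 tumours Car3 followed Adipoq with Pearson's r of 0.95 and Spearman's rho of 0.98. The 3 further probe sets of Car3 had r of 0.91, 0.76 and 0.67 with its leading one.

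Cidec, a protein of the droplet surface that lets droplets fuse and grow, and Plin4, another coat protein of droplets, were low in most tumours. Cidec (chr6:113424634-113435760) was 3.998 in tumour 11, 4.93 at the median and 8.84 in tumour 19. Plin4 (chr17:56100587-56109948) was 4.99 in tumour 11, 5.54 at the median and 7.86 in tumour 19. Cidec had a mean of 5.26 and Plin4 of 5.73, both under the median of all probe set means (5.78). In most tumours both lay in the dimmer part of the array, Plin4 close to its middle. Cidec was highest in 4 tumours, with 7.74 in tumour 21, 7.69 in tumour 31 and 7.67 in tumour 13 besides tumour 19. Cidec and Plin4 had an r of 0.94 with each other, and r of 0.90 and 0.87 with Adipoq.

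Retn encodes resistin, a hormone of mouse white fat cells (chr8:3655770-3659818). It was 6.45 in tumour 18, 7.24 at the median and 11.09 in tumour 19. Tumour 21 followed at 10.58, and every other tumour was at or under 8.62 (tumour 17). Tumours 13 and 31, close to tumour 21 in Adipoq and Cidec, had Retn levels of 8.55 and 8.34.

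Fabp4, the fatty acid carrier of the fat cell cytosol, and Lpl, lipoprotein lipase, were bright in all 32 tumours. Fabp4 (chr3:10204342-10208616) was 9.83 in tumour 2, 10.66 at the median and 12.78 in tumour 30. Lpl (chr8:68880555-68906932) was 9.08 in tumour 15, 10.21 at the median and 12.22 in tumour 19. Their spans from median to top were 4.35-fold and 4.04-fold. The highest Fabp4 level thus belonged to a tumour whose Adipoq (6.05) and Cidec (4.49) were under their medians. The other probe sets had r of 0.996, 0.90 and 0.82 with the leading one for Fabp4, and 0.99 for Lpl.

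**Figure D1:**
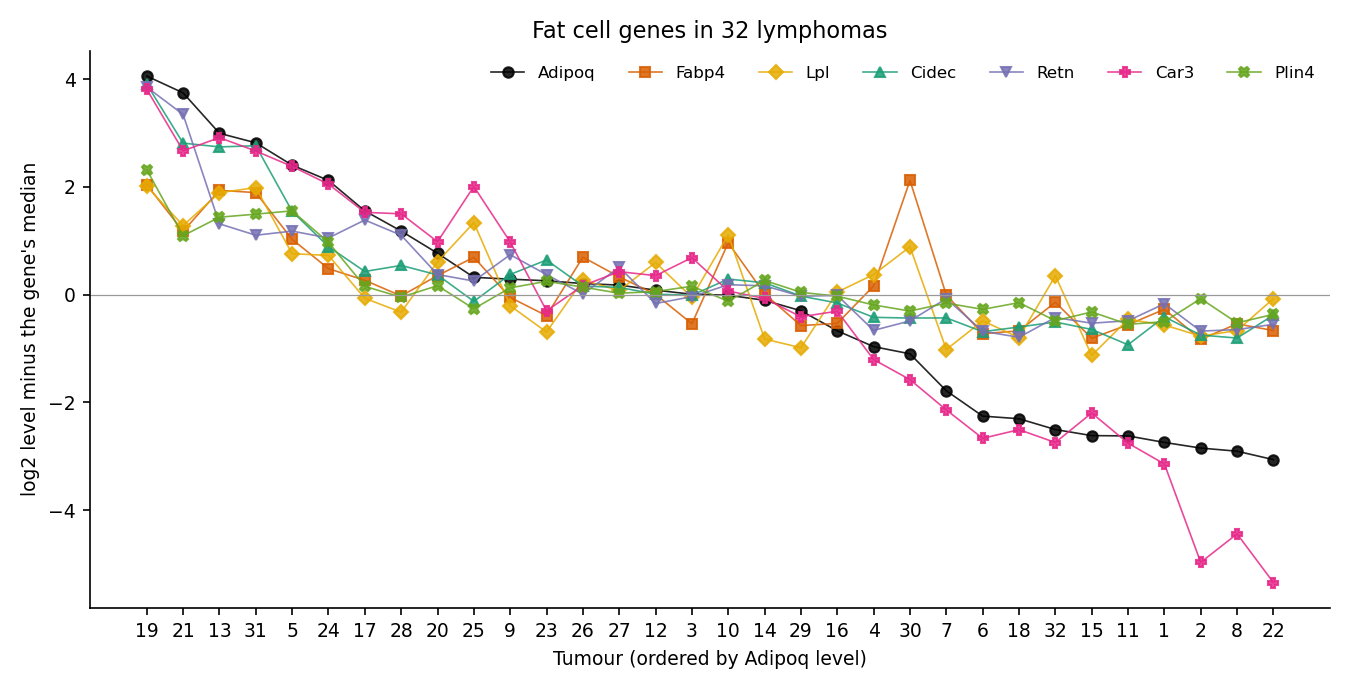
Log2 level of each of 7 fat cell genes minus that gene's median (y axis) in each of 32 tumours, ordered from the highest to the lowest Adipoq level (x axis), 1 point per gene and tumour. All genes are high in tumours 19, 21, 13 and 31 at the left, and Fabp4 and Lpl lie above the others in tumours 10 and 30.

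Promoter sequences (250 bases before to 50 bases after the start, from RefSeq on GRCm38.p6) are shown for 4 genes whose levels moved closely together (Car3, which moved with them, has no entry). Capitals mark the letters CCAAT or their complement ATTGG, searched on both strands together with AGGTCA (the nuclear receptor half-site, bound among others by Pparg with its partner), TATAAA and TTGCNNAA (a C/EBP pattern). No motif overlaps another in these windows.
Adipoq, chr16:23146286-23146585, plus strand: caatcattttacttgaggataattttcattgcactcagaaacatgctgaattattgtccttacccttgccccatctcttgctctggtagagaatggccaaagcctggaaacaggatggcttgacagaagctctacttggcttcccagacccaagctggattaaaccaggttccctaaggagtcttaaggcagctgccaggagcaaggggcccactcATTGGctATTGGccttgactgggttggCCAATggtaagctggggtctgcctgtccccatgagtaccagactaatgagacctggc
Cidec, chr6:113435711-113436010, minus strand: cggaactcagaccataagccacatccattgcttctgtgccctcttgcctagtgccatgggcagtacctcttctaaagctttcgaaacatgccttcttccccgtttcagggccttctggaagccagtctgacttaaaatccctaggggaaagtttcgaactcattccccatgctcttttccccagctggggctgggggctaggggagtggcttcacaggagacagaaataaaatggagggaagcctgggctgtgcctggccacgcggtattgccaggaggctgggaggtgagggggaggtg
Plin4, chr17:56109733-56110032, minus strand: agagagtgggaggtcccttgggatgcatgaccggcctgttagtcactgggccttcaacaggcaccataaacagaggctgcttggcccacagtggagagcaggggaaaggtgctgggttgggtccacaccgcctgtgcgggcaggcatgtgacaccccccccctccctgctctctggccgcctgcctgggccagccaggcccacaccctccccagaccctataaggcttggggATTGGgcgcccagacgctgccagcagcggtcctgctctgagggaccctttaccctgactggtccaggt
Retn, chr8:3655520-3655819, plus strand: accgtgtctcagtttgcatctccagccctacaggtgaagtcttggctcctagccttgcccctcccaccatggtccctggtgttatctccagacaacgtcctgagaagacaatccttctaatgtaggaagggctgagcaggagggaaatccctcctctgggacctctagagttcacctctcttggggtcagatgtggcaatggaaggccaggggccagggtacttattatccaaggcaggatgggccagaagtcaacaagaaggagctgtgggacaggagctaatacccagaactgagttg
The Adipoq window held 3 CCAAT matches, whose leftmost bases lie 34, 27 and 7 bases before the start, and the Plin4 window held 1, at 18 bases before it. CCAAT was present in 37.41% of 32851 promoter windows of the same length. The Cidec and Retn windows shown held none of the 4 patterns, and a second Cidec start (chr6:113434715-113435014, minus strand) held 1 match to the C/EBP pattern, found in 10.8% of windows. AGGTCA (16.26% of windows) and TATAAA (13.62%) matched in none of the windows of these 4 genes. Letters in such a window describe it and say nothing of binding.

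Adipoq, Car3, Cidec, Plin4 and Retn formed the closest set, with pairwise r from 0.76 (Car3 and Plin4) to 0.95 (Adipoq and Car3). Fabp4 and Lpl had an r of 0.87 with each other, and r from 0.61 (Lpl and Retn) to 0.75 (Fabp4 and Cidec) with these 5. Tumours 13, 19 and 21 were among the top 5 for all 7 genes, tumour 31 for 6 and tumour 5 for 5. Tumours 17, 25 and 30 each reached the top 5 for 1 gene. These correlations share the same arrays, and the genes were picked for such levels.

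**Figure D2:**
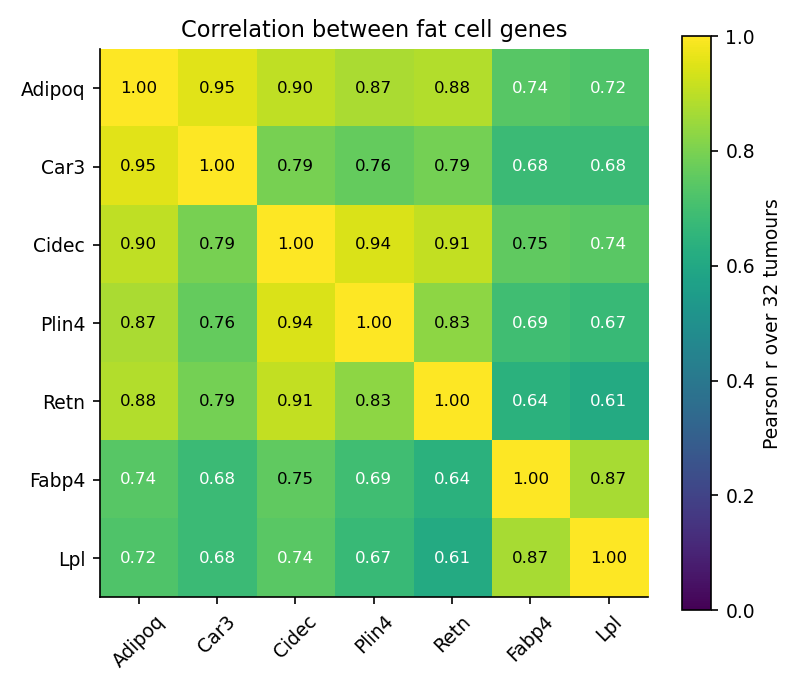
Pearson's r over 32 tumours for each pair of 7 fat cell genes (both axes, colour and printed value). The lowest values, 0.61 to 0.75, join Fabp4 or Lpl to the other 5 genes.

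To ask what else followed these genes, each of 18193 other genes was fitted on the Adipoq level with limma, whose slope is the log2 change per 1 SD of Adipoq. At an adjusted p under 0.05 (Benjamini-Hochberg), 76 genes rose with Adipoq, 0.418% of those tested, and 11 fell, 0.0605%. The 76 include the other 6 fat cell genes, which is no result since they were chosen for this pattern, and 70 others with slopes from 0.11 to 1.29. The median slope of all genes was -0.01. Without tumour 19, 48 genes rose; without tumours 19 and 21, 38 did, and without the 4 tumours highest in Adipoq, 16 did, of which 15 were among the 76.

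Cyp2e1, a cytochrome P450 known from liver and also made in fat, followed Adipoq most closely. It was 4.64 in tumour 22, 6.40 at the median and 10.42 in tumour 19, with a slope of 1.29 ± 0.10 (SE, adjusted p = 8.39e-11, limma, 32 tumours). Its extremes fell in the same tumours as those of Adipoq. Ces1d, a carboxylesterase that hydrolyses triglyceride, had a slope of 0.91 ± 0.09 (adjusted p = 1.82e-08). Cdo1, cysteine dioxygenase, which starts taurine synthesis, had a slope of 1.12 ± 0.12 (adjusted p = 1.4e-07). The carboxylesterase Ces1f (0.43), the monooxygenase Fmo1 (0.56) and the mitochondrial carbonic anhydrase Car5b (0.29) also rose, as did the kinase Sik2 (0.23) and the plasma carrier Orm1 (0.37). Fcor, known in mouse fat as a corepressor of Foxo1, rose with a slope of 0.27, although its highest level was only 4.74.

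By a second measure, the mean r with the 7 fat cell genes, the 10 most similar other genes were Ces1d, Cyp2e1, Thrsp, Adig, Ces1f, Fcor, Me1, Orm1, Aldh1a7 and Slc27a1. Their mean r over 32 tumours ran from 0.78 to 0.84, and all 10 were among the genes rising with Adipoq. This overlap is no separate evidence, since Adipoq is among the 7 genes and the others followed it on the same arrays. Adig had its highest r with Cidec (0.96), and Me1 with Retn (0.93). Of the 15 rising genes with the largest moderated t, Dgat2, Fmo1, Car5b and Orm1 lost the call without the 4 tumours highest in Adipoq (adjusted p = 0.396, 0.286, 0.0683 and 0.0526, limma). The other 11 kept it there, and the adjusted p of Slc27a1 (0.0492) was the closest to the threshold.

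Of 44 measured genes on 5 lists of fat cell function, 14 rose with Adipoq and 0 fell by limma, where 0.418% of all genes rose. These lists, like the other gene lists below, were drawn up with earlier results of these data known. Their counts are thus a description and no independent support. At an unadjusted p under 0.05, 32 rose and 0 fell, where 1789 of all 18193 genes rose or fell. The slopes of 41 of the 44 were above 0, with a median of 0.21. Without tumours 19 and 21, 9 of 44 rose, and without the 4 tumours highest in Adipoq, 5 of 44 did. Leaving out any 1 tumour gave 11 to 16.

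Of 4 genes for the uptake of fuel 3 rose, but 1 (Slc27a1) did without tumour 19, without tumours 19 and 21, and with ranks of the Adipoq level. Cd36, the fatty acid scavenger receptor, rose with a slope of 0.57 ± 0.11 (adjusted p = 0.0076, limma), and reached 9.91 in tumour 30 and 9.73 in tumour 19. The fatty acid transporter Slc27a1 rose by 0.36 and the insulin-responsive glucose carrier Slc2a4 by 0.17 per SD of Adipoq. The glycerol channel Aqp7 had a slope of 0.04 (adjusted p = 0.684, limma), and Acsl1 is not analysed here.

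Of 15 genes of fatty acid and triglyceride synthesis, 6 rose, and all 15 had slopes above 0. At an unadjusted p under 0.05 by limma, 13 rose and 0 fell, where 1789 of all 18193 genes rose or fell. Thrsp, a nuclear protein that promotes lipogenesis, was 5.50 in tumour 22, 6.15 at the median and 8.94 in tumour 19 (slope 0.79 ± 0.09, adjusted p = 2.7e-07, limma). Me1, which supplies NADPH, reached 8.49 in tumour 21 and 8.32 in tumour 19 against a median of 5.62. The acyltransferases Dgat2 (slope 0.57) and Dgat1 (0.26), which add the last fatty acid to triglyceride, and the glycerol phosphate enzyme Gpd1 (0.44) rose. Pck1, which feeds glyceroneogenesis, rose with a slope of 0.82 ± 0.16, and was highest in tumours 13 (8.09) and 31 (7.61). The bright core enzymes of fatty acid synthesis did not pass, with slopes of 0.25 for Fasn (adjusted p = 0.0832, limma), 0.18 for Acaca and 0.09 for Acly. Fasn and Acaca were still highest in tumours 19, 21 and 13, and Acly in tumours 21, 29 and 19.

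Droplet and lipolysis genes gave 1 call among 6, and all 6 had slopes above 0. At an unadjusted p under 0.05 by limma, 5 rose and 0 fell, where 1789 of all 18193 genes rose or fell. Lipe, hormone-sensitive lipase, had a slope of 0.38 ± 0.07 (adjusted p = 0.00113, limma) and was highest in tumours 19 (7.96) and 21 (7.91). Without these 2 tumours its adjusted p was 0.0956 (limma). The first lipase of the pathway, Pnpla2, had a slope of 0.24 (adjusted p = 0.1, limma). Plin2, the droplet protein of many cell types, had a slope of 0.18 and was highest in tumour 30 (10.51). Plin1 is not analysed here.

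Of 7 transcription factors of fat cell formation 0 passed by limma, and 4 rose at an unadjusted p under 0.05. Without the 11 tumours high in Bpifa2, Klf15 passed (slope 0.27, adjusted p = 0.0337, limma). Pparg, the regulator that fat cells depend on, had a slope of 0.27 ± 0.08 (adjusted p = 0.132, limma) and ran from 5.14 to 6.90. Cebpa had a slope of 0.27 (adjusted p = 0.346, limma) and was highest in tumour 24. By limma, 1789 of all genes had an unadjusted p under 0.05 on this axis.

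Among hormones, receptors and other fat cell proteins, 4 of 12 rose. Ghr, the growth hormone receptor, was 4.74 in tumour 8, 6.24 at the median and 9.15 in tumour 19 (slope 0.90 ± 0.11, adjusted p = 3.6e-06, limma). Adig, adipogenin, rose by 0.65 per SD, the glucose transport regulator Trarg1 by 0.19 and the melanocortin receptor partner Mrap by 0.30. Lep, leptin, stayed between 3.52 and 4.22 in all 32 tumours, the 4 highest in Adipoq included. Lgals12, a galectin of fat cells, turned on the choice of probe set. Its brighter probe set had an r of -0.07 with Adipoq and the dimmer one 0.81, and their mean had a slope of 0.14 (adjusted p = 0.000459, limma). Probe sets of Acvr1c also differed, with an r of 0.18 for the brightest and 0.76 and 0.63 for dimmer ones. With means of probe sets, 6 of 12 genes of this list and 16 of 44 over the 5 lists rose.

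**Figure D3:**
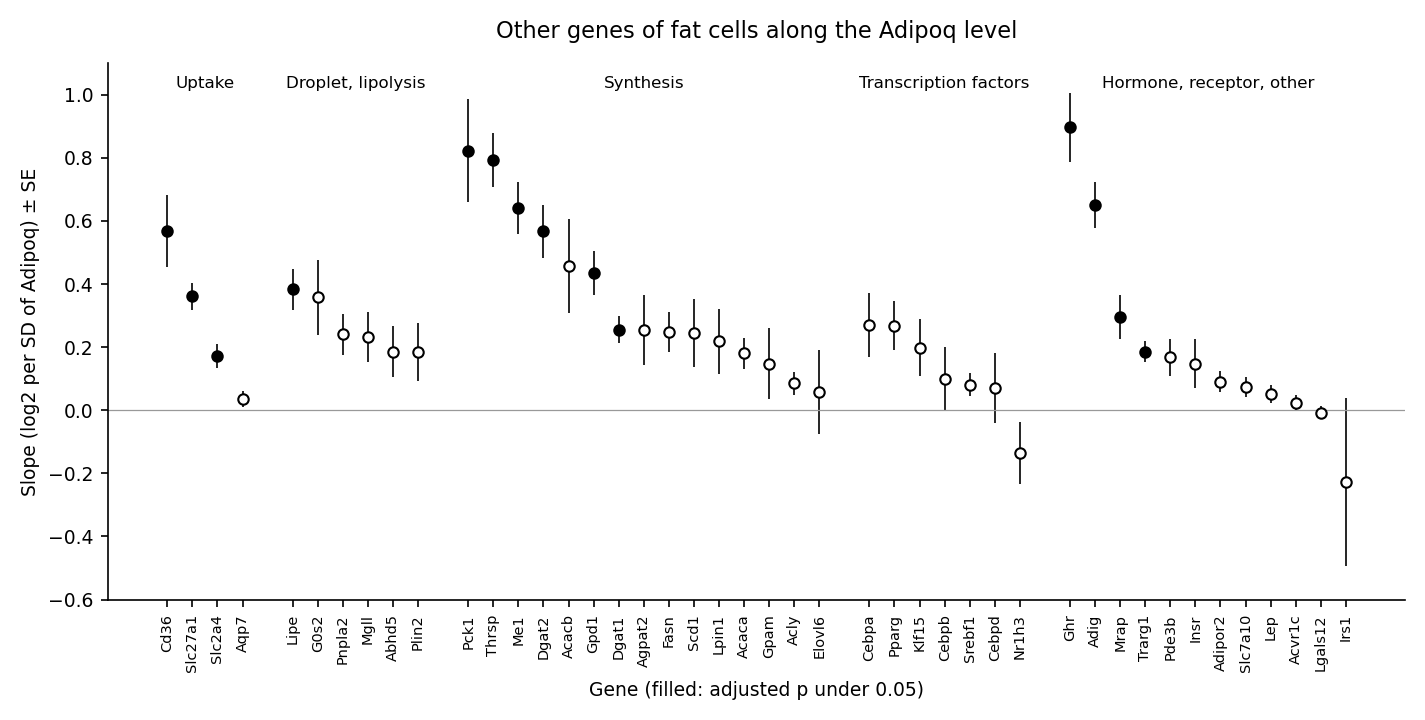
Slope of 44 genes of 5 fat cell lists on the Adipoq level (y axis, log2 per SD of Adipoq, bars show the SE of the fit over 32 tumours), grouped by function (x axis), with filled points for an adjusted p under 0.05. The 14 filled points lie in 4 of the groups and 0 among the transcription factors.

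A score of 13 fat-restricted genes that holds none of the 7 followed Adipoq with r = 0.80 and rho = 0.64 (two-sided permutation test, p = 1e-05, the smallest that 100000 resamples can give, adjusted p = 0.00017 over 17 relations, 32 tumours). Without the 2 tumours farthest from the median Adipoq level r was 0.73. All 13 of its genes are also on the lists above, so the score restates part of those lists and is no separate evidence. Its genes too were chosen with earlier results of these data known, which limits what its p-value can mean. It was the 1 relation of the 17 that passed.

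Of the paralogs of the fat cell genes, 1 of 20 rose (Car5b) and 0 fell by limma. At an unadjusted p under 0.05, 6 rose and 2 fell, where 1789 of all 18193 genes rose or fell. Fabp5, the family member of many other cell types, was bright in every tumour (10.83 to 13.17) and had a slope of -0.04. Retnla, a resistin-like gene known in macrophages and fat, had a slope of 0.73 (adjusted p = 0.0915, limma). Plin5, a droplet protein of oxidative tissue, was highest in tumours 13 (7.41) and 31 (7.38), against a median of 6.08 over the 32 tumours.

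The tumours rich in fat cell genes differed in brown fat genes. By limma 0 of 8 brown fat genes passed on the Adipoq level. At an unadjusted p under 0.05, 4 rose and 1 fell, where 1789 of all 18193 genes rose or fell. The brown fat score had an r of 0.39 and a rho of 0.23 with Adipoq (permutation tests, adjusted p = 0.0992 and 0.318). Without tumours 19 and 21 its r was 0.48 (permutation test, adjusted p = 0.0347). This score was 2.26 in tumour 13 and 2.16 in tumour 31, and at or under 0.63 in every other tumour. These r thus lean on tumours 13 and 31 and do not show a graded relation. Ucp1, the uncoupling protein that defines brown and beige fat cells, was 10.16 in tumour 31 and 10.09 in tumour 13, against a median of 4.91. The next highest tumours were 20 (7.10), 12 (6.90) and 4 (6.11). Their Adipoq levels were 7.92, 7.23 and 6.18, the last under the median, so raised Ucp1 was not confined to tumours rich in Adipoq. In tumours 19 and 21, which led in Adipoq, Ucp1 was 4.76 and 4.79, both under the median.

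Cidea, the droplet protein of brown fat, was highest in the same 3 tumours, with 8.83 in tumour 13, 8.53 in tumour 31 and 6.35 in tumour 20. Cox8b, a respiratory subunit of brown fat and muscle, was 9.71 in tumour 13 and 8.78 in tumour 31 (slope 0.61, adjusted p = 0.0585, limma). Elovl3, a fatty acid elongase of brown fat, was 6.22 and 6.20 in tumours 13 and 31, against a median of 5.46. The potassium channel Kcnk3 was 6.59 and 6.87 there, against a median of 6.12. The resistin gene ran the other way among the 4 tumours. It was 8.55 and 8.34 in tumours 13 and 31, and 11.09 and 10.58 in tumours 19 and 21. The 3' minus 5' difference was 0.40 and 0.26 in tumours 13 and 31, against 0.90 and 0.67 in tumours 19 and 21. Whether RNA quality bears on this contrast was not tested. Dio2, Zic1 and the coactivator Ppargc1a had their highest levels elsewhere, at 6.03 in tumour 32, 3.25 in tumour 29 and 6.09 in tumour 9. These tumours were singled out after their values were seen, and no test was made between them.

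Tumours 13 and 31 also carried skeletal muscle genes. The score of 14 muscle genes was set apart by a gap in 5 tumours, 31, 3, 13, 28 and 20. Their Adipoq levels were 9.97, 7.16, 10.14, 8.33 and 7.92, all above the median of 7.15. Ckm, muscle creatine kinase, was 8.97 in tumour 13, 8.95 in tumour 31 and 8.93 in tumour 3, but 5.11 in tumour 19 and 4.95 in tumour 21. Ucp1 in tumour 3 was 4.77, so high muscle genes came with and without high Ucp1. On the Adipoq axis 0 of 14 muscle genes passed by limma. At an unadjusted p under 0.05, 4 rose, where 1789 of all 18193 genes rose or fell. The slopes of 13 of the 14 were above 0, with a median of 0.35. In the 27 tumours below the gap the score had an r of -0.09 with Adipoq (permutation test, adjusted p = 0.718). That r leaves out the 5 tumours above the gap and does not compare them with the rest. With the muscle score in the model 58 genes rose with Adipoq, 55 of them among the 76.

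**Figure D4:**
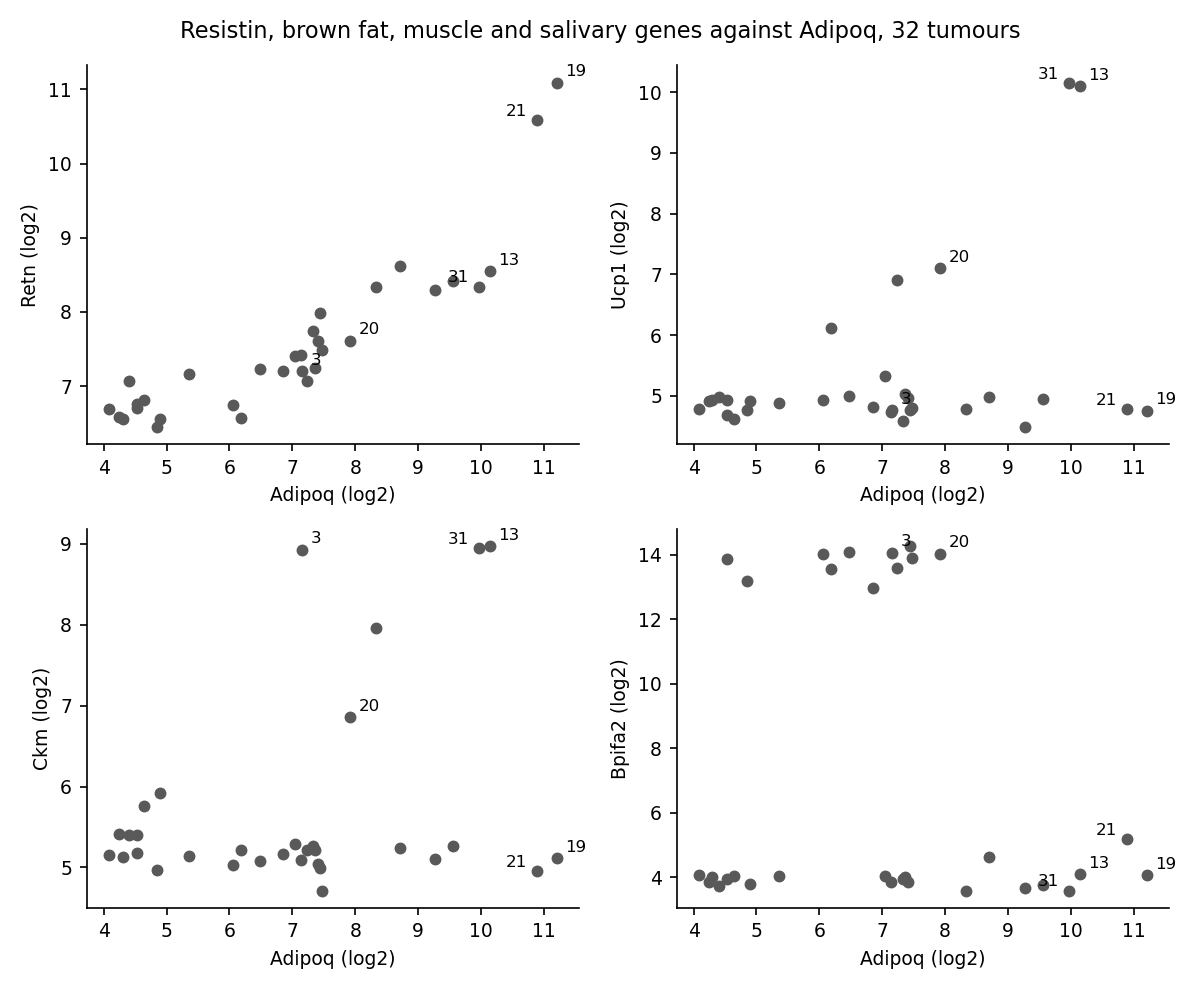
Log2 levels of Retn, Ucp1, Ckm and Bpifa2 (y axes) against Adipoq (x axis), 1 point per tumour, with 6 tumours numbered. Retn is highest in tumours 19 and 21 and Ucp1 in tumours 13 and 31, Ckm is high in tumours 3, 13 and 31, and the 11 tumours high in Bpifa2 all lie at or under an Adipoq level of 7.92.

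The salivary gland genes, a list chosen from these data, showed another pattern: by limma 0 of 9 passed in either direction, and 0 did at an unadjusted p under 0.05. The 11 tumours high in Bpifa2 had Adipoq levels from 4.53 to 7.92 (median 6.85), and the other 21 from 4.09 to 11.21 (median 7.33). The groups overlapped over the whole range of the 11. Within them the r of Bpifa2 and Adipoq was 0.34 among the 11 and 0.25 among the 21 (permutation tests, adjusted p = 0.405 and 0.402).

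Markers of other cell types were not called along Adipoq. Of the lists for stroma (9 genes), endothelium (8), macrophages (9), neutrophils (6), mast cells (6), T cells (7), shared B cell genes (8), epithelium (8), fat cell precursors (6) and proliferation (9), 0 genes passed by limma in either direction. At an unadjusted p under 0.05, 15 of these 76 genes rose and 1 fell, where 1789 of all 18193 genes rose or fell. Weak relations of these markers with Adipoq thus remain possible. The epithelial score had an r of -0.42 with Adipoq (permutation test, adjusted p = 0.0992). The scores of stroma and macrophages had r of 0.27 and -0.04 with Adipoq (permutation tests, adjusted p = 0.269 and 0.843), and the Myc level -0.12 (adjusted p = 0.647). The 3' minus 5' difference had an r of 0.39 (adjusted p = 0.0992) and was 0.90 in tumour 19. Without tumours 19 and 21 its r was 0.13. With it as a term in the model 64 genes rose with Adipoq, 57 of them among the 76.

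The 11 falling genes had small slopes, from -0.25 to -0.10. Srrd had the smallest adjusted p among them, and was 6.79 in tumour 24, 7.03 at the median and 7.38 in tumour 18 (slope -0.12 ± 0.02, adjusted p = 0.00581, limma). St7l, Smg5, Zfp408, Abitram, 3000002C10Rik, Aste1, Arhgap35 and the pyruvate kinase gene Pkm also fell. Their number ran from 3 (without tumour 18) to 18 (without tumour 2), and was 0 without the 4 tumours highest in Adipoq, where 1522 of all genes had an unadjusted p under 0.05 by limma.

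Since the r of Fabp4 and Lpl with the other 5 genes lay between 0.61 and 0.75, a fit added after the data were seen asked which genes followed them at a given Adipoq level. With Adipoq in the model, 156 of 18192 genes rose with Fabp4 (0.858%) and 98 with Lpl (0.539%), 58 of them in both fits. Leaving aside the chosen fat cell genes, the counts were 155 and 97. C3ar1, a complement receptor of macrophages, came first for Fabp4, with a slope of 0.87 per SD of Fabp4 (adjusted p = 1.06e-06, limma) against 0.03 per SD of Adipoq in the fit on Adipoq alone. It was 8.39 in tumour 30, 7.55 in tumour 10 and 6.25 at the median.

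The next genes by adjusted p were the endocytic adaptor Dab2, the membrane protein Pmp22, the platelet and macrophage chemokine Pf4, Lims2, Emp1 and the lipid-sensing receptor Trem2. Cd36, Ptx3, Fndc1 and Gpihbp1, which anchors Lpl on capillaries, followed. Tumour 30 was the highest for each of these and for Fabp4, Cd36 (9.91) and the macrophage genes Adgre1 (9.75) and Cd68 (11.81). Of the 9 macrophage genes 2 rose with Fabp4 (Adgre1 and Cd68), of the 9 stroma genes 4 (Col1a1, Col1a2, Col6a1 and Sparc), and of the 8 endothelial genes 1 (Emcn). The mean standardised score of tumour 30 was 2.34 for macrophages, 2.02 for stroma and 2.08 for endothelium, the highest of 32 for macrophages and endothelium.

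The number of calls rested on that tumour. Without tumour 30, 6 genes rose with Fabp4 at a given Adipoq level: C3ar1 (adjusted p = 0.00053, limma), Dab2, Lpl, Pf4, Fndc1 and Pmp22. The call of Lpl is no result, since Lpl and Fabp4 were both chosen for their levels in these tumours. Trem2, Cd68 and Adgre1 did not pass there (adjusted p = 0.118, 0.369 and 0.293, limma), with slopes of 0.56, 0.52 and 0.80 without tumour 30, against 0.74, 0.72 and 0.86 with it. With the stroma score as a further term, 8 genes rose with Fabp4 and 0 with Lpl by limma, where 798 of all genes had an unadjusted p under 0.05 for Lpl. Without tumour 24, 265 genes rose with Fabp4.

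For Lpl the leading genes at a given Adipoq level included Pparg (slope 0.50, adjusted p = 0.000365, limma), B3galnt1, Hacd4, Serpinb6a and Stard8. Pparg was highest in tumours 31 (6.90) and 25 (6.89), and tumour 25 had Lpl at 11.55 and Adipoq at 7.47. In simple relations, Lpl followed the stroma score with r = 0.59 and Fabp4 did so with r = 0.59 (permutation tests, adjusted p = 0.00297 and 0.0034), where Adipoq had 0.27. Whether these r differ from each other was not tested. The number of genes rising with Lpl ran from 26 (without tumour 30) to 177 (without tumour 24), and was 36, 38, 51, 58, 63 and 63 without tumours 25, 28, 23, 14, 17 and 29, and 167 and 170 without tumours 12 and 22.

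**Figure D5:**
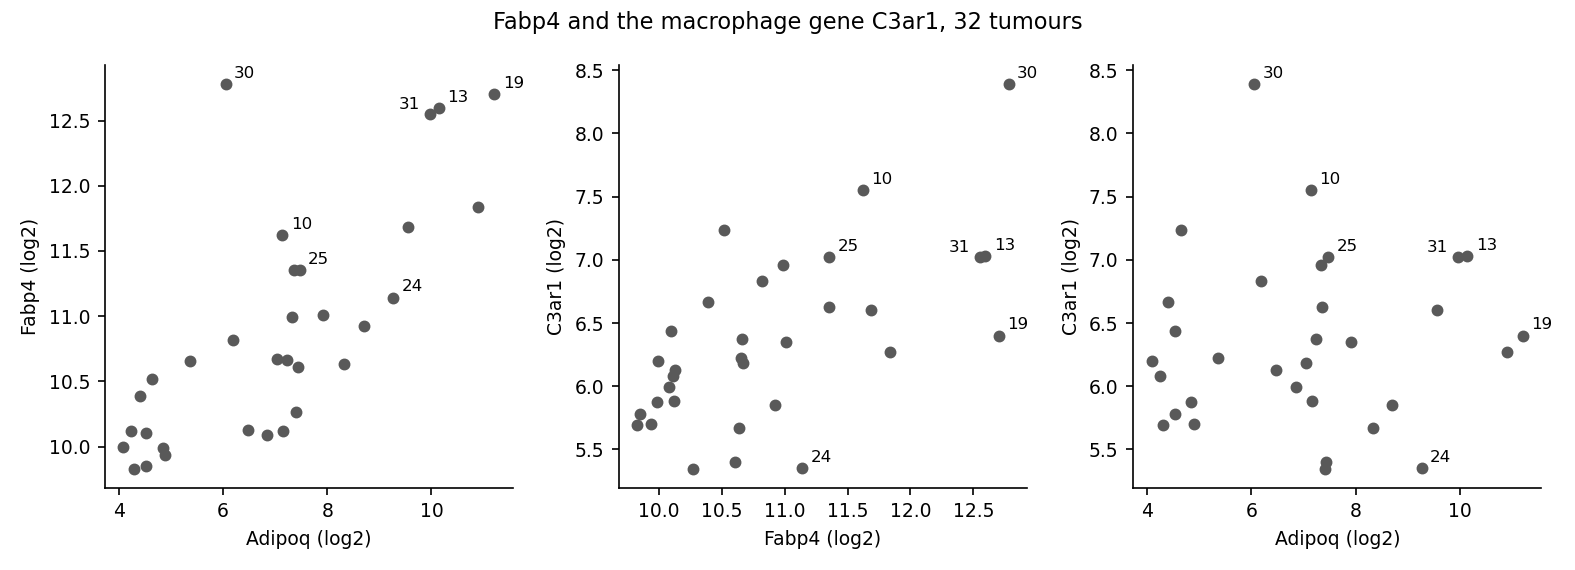
Log2 levels of Fabp4 against Adipoq (left), C3ar1 against Fabp4 (middle) and C3ar1 against Adipoq (right), 1 point per tumour, with 7 tumours numbered. Tumour 30 has the highest Fabp4 (12.78) and C3ar1 (8.39) at an Adipoq level of 6.05.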

How the data were processed

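Biotin-labelled cRNA of 32 lymphomas was measured on Mouse430_2 arrays from Affymetrix, per the labels' protocols. The deposited log2 values per probe set were made by the authors with RMA in affy, per the submitters' processing notes. RMA equalises the distributions of the arrays, which hides shifts shared by most genes. The versions and build of that step were not given in the sources used here.

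The platform annotation named 1 gene for 34958 of the 45101 probe sets, several for 932 and none for 9211. The Entrez identifiers of 34754 probe sets matched RefSeq genes of GRCm38.p6, which changed 0 symbols. Each of 18194 genes took its probe set with the highest mean, with no filter on dim probe sets. All 32 columns were mapped to a tumour, and 0 were left over. Promoters came from the same RefSeq build and were found for 4 of the 7 genes. The number of arrays limits the precision.

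The genes and lists were chosen with earlier results of these data known. Each gene was regressed on the Adipoq level, scaled to an SD of 1 with lmFit and eBayes of limma 3.58.1 in R 4.3.3. Adipoq itself was left out, and a call needed a p under 0.05 after Benjamini-Hochberg adjustment. The 17 relations used Pearson's r and Spearman's rho with two-sided permutation tests of 100000 resamples, adjusted together. A score is the mean standardised log2 value of a list of at least 3 genes. Where a gap of 25% of the range or more parted 3 or more tumours on either side, r was taken within the parts of 6 or more tumours. Named genes were the fat cell genes, the 15 rising and 10 falling with the largest moderated t, the 10 most similar, and list members and paralogs; 1 of the falling genes is not reported here. The genes named from the Fabp4 and Lpl fits were added after their values were seen. Figures were drawn with matplotlib 3.10.9, and permutations were run with numpy 2.4.6 and pandas 2.3.3 in Python 3.11.15. The steps were tested on simulated data. Alternatives were filters on dim probe sets, means of probe sets, renormalisation, ranks, other axis genes, covariates and left-out tumours. Batches are not named in the sources used here and were not tested.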

Additional observations from a re-analysis of the deposited data

How the results depend on the processing

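The 76 genes rising with Adipoq became 39 and 6 when probe sets under the median and under the 75th percentile of mean level were dropped, both wholly within the 76, since 37 of the 76 have a mean under the median. Genes falling became 7 and 1 there. With Fabp4, Lpl or Car3 as the axis in place of Adipoq, 166, 203 and 50 genes rose, of which 57, 63 and 46 were among the 76. By limma, genes falling numbered 6, 6, 3, 5 and 0 on the Fabp4, Lpl, Cidec, Retn and Plin4 axes (971 genes had an unadjusted p under 0.05 on the last), 6 after a shift of arrays by reference genes and 5 with the stroma score as a term. Without the 2 tumours farthest from the median Adipoq level 38 genes rose. In settings chosen after seeing the data, 16 rose and 0 fell without the 4 tumours highest in Adipoq, and 3 fell without the 11 tumours high in Bpifa2. The numbers rising and falling under the other alternatives stayed within 1.5 times of these. Leaving out each tumour in turn gave 48 (without tumour 19) to 86 rising genes, and 3 (without tumour 18) to 18 (without tumour 2) falling genes. Falling genes were 4 to 7 without tumour 6, 8, 15, 17, 19, 22, 31 or 32. Given Adipoq, genes rising with Fabp4 ran from 6 to 265 and with Lpl from 26 to 177, and they were 8 and 0 with the stroma score as a term.

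The relation of Adipoq with the fat-restricted score kept its call in every alternative run. With Fabp4 as the axis, the brown fat, stroma and endothelial scores passed, with r of 0.45, 0.59 and 0.48. With Lpl as the axis, brown fat (0.54), preadipocyte (0.52), stroma (0.59), endothelial (0.49) and macrophage scores (0.42, against -0.04 for Adipoq, a change of sign) passed. The 3' minus 5' difference passed with Retn as the axis (0.53), and brown fat passed without the 2 farthest tumours (0.48). The cause of these changes was not tested. The slope of Lgals12, -0.01, turned to 0.14 with the mean of its probe sets, whose second member has an r of 0.81 with Adipoq. For the named genes, 994 of 1156 values under other settings and 1966 of 2048 with 1 tumour left out kept their direction and their side of the threshold. No paired analysis was possible because the labels give 1 group. Signal over background limits Cidec, Plin4 and other dim genes, and a site or batch of each tumour was not analysed here.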
